A study of Mus musculus with 14 samples.

Results

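The uptake of glucose and its breakdown to lactate were followed here in 10 genes: the glucose transporters Slc2a1 and Slc2a3, the hexokinases Hk1 and Hk2, and the enzymes Pfkp, Aldoa, Pgk1, Eno1, Pkm and Ldha. They were found by gene symbol among the 22203 transcript clusters (the probe groups that stand for 1 gene on a mouse Clariom S array), and each of the 10 had exactly 1 row. RNA came from regulatory T cells (Tregs) sorted from mixed bone marrow chimeras, in 4 groups and 14 arrays. Marrow carrying CD45.2 from Foxp3-Cre Atg14+/fl mice (control, heterozygous for the gene) or Foxp3-Cre Atg14fl/fl mice (KO) was mixed in equal parts with CD45.1 wild-type marrow and given to sublethally irradiated Rag1-/- hosts, which cannot make T or B cells of their own. The CD45.2 Tregs that grew from it were sorted as CD4+ Foxp3-YFP+ cells, into central Tregs (cTregs, CD44low) and effector Tregs (eTregs, CD44high). There were 4 control cTreg, 4 control eTreg, 3 KO cTreg and 3 KO eTreg arrays. Both genotypes carried the Cre under Foxp3, which acts in cells that have turned on Foxp3, and all mice were on the C57BL/6 background. The study's methods add that some experiments used Foxp3-Cre Atg14fl/fl mice that carried an Atg14+/- or Atg14-/- allele, and report no notable differences for them. Whether such mice gave any of these arrays is not stated, so a loss limited to Foxp3+ cells is not established here. The series description places the cells in spleen and peripheral lymph nodes, whereas the methods name the spleen. The labels do not say which arrays came from which mice or whether replicates were separate animals, so the P values measure only the spread between these arrays. The paper lists both subsets under the same groups of chimera mice, without matching arrays to mice. Same-numbered cTreg and eTreg arrays may thus share a mouse, which the main fit does not model.

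Glucose enters a T cell through facilitative carriers of the SLC2 family, is trapped by hexokinase as glucose 6-phosphate, is committed to glycolysis by phosphofructokinase, and is split by aldolase into triose phosphates. Phosphoglycerate kinase and pyruvate kinase make ATP, enolase stands between them, and lactate dehydrogenase turns pyruvate into lactate, which restores NAD. Activated and dividing T cells are known to raise this pathway, largely through Myc and the hypoxia-inducible factor HIF-1, while resting Tregs are known to lean on mitochondrial oxidation. Atg14 is the subunit that directs the lipid kinase Vps34 to autophagy. The comparisons ask whether the pathway's transcripts differed between eTregs and cTregs, and whether they differed between the Atg14 genotypes within each subset.

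The genes lie on chromosomes spread over the genome (4 for Slc2a1 and Eno1, 6 for Slc2a3 and Hk2, 7 for Aldoa and Ldha, 9 for Pkm, 10 for Hk1, 13 for Pfkp and X for Pgk1). HIF-1 binds the core letters ACGTG or GCGTG, and Myc binds the E box CACGTG, which holds a core on each strand. Promoter sequence from RefSeq (build GRCm38.p6), the 250 bases before each annotated start, was found for 9 of the 10 genes, in 16 windows; none is given for Slc2a3. A core on either strand stood in 13 of these 16 windows (81.25%), against 38.6% of the 32851 windows of all genes, and an E box stood in 1 of the 16, against 6.02% of all. Windows of 1 gene overlap, and a letter match is no measured binding. The promoters of Slc2a1 (chr4:119108495-119108744, + strand) and Pfkp (chr13:6648772-6649021, - strand) are shown because their KO eTreg arrays lay apart from the KO cTregs in opposite directions. That of Ldha (chr7:46845554-46845803, + strand) is shown because it alone of the 9 genes with a window held the E box. That of Tpi1 (chr6:124814159-124814408, - strand) is shown because this neighbouring enzyme was the only glycolysis enzyme called in any comparison of the main fit. Capitals mark every core, read on either strand.
Slc2a1: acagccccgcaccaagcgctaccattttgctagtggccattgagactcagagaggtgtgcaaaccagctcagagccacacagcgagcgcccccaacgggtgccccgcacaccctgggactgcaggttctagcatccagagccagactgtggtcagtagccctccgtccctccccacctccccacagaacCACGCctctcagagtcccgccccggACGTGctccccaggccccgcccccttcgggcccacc
Pfkp: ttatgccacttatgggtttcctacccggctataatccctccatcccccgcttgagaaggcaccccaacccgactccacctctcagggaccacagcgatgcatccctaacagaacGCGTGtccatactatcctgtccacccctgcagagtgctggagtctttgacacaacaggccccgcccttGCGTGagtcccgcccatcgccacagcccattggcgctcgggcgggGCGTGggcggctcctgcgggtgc
Ldha: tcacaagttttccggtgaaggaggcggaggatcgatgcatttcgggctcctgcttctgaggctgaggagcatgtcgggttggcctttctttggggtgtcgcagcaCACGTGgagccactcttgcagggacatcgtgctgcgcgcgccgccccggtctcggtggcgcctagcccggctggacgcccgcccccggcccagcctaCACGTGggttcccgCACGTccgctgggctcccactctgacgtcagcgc
Tpi1: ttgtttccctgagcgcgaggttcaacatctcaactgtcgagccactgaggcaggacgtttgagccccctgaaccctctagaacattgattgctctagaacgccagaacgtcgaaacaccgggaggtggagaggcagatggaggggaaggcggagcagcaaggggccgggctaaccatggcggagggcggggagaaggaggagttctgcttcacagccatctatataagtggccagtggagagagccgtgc
Slc2a1 held 2 cores, Pfkp 3 and Ldha 5, where both E boxes count once for each strand, and Tpi1 held 0 in this window.

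The arrays were alike in overall signal, with medians of 8.77 to 8.90 on the log2 scale and background probes at 6.00 to 6.30. Cd44, the gene of the sort marker, was higher in eTregs than in cTregs by 1.61 log2 units in controls (adjusted P = 0.000121, limma) and by 1.80 in KO (adjusted P = 0.00036). Foxp3 lay between 12.74 and 13.12 on every array. The array labelled KO eTreg 1 stood apart from the other eTregs: its score on the first principal component, which held 34.5% of the variance, was -4.30, against 5.26 to 39.9 in the others and -26.6 to -12.8 in cTregs, and its Cd44 signal of 10.60 was the lowest of all eTreg arrays. Values that involve it are followed by those without it for many, not all, of the 10 genes and the called genes around them. That fit keeps 2 KO eTreg arrays, which had the highest summed monocyte and macrophage markers of all 14 arrays (given below). It is given as a check, not as the cleaner result. Atg14 itself was not lower under the KO label. It read 9.004 to 9.316 on the 3 KO eTreg arrays and 8.643 to 9.011 on the 4 control eTreg arrays (difference 0.32, adjusted P = 0.55, limma). KO below therefore always means the label, and whether the probes lie outside the deleted part is not known. The paper reports that deletion of Atg14 was verified by quantitative PCR in sorted Tregs of Foxp3-Cre Atg14fl/fl mice, not on these arrays. Summed signal of 18 monocyte and macrophage markers was 12.39 to 12.64 in all cTregs, 13.15 to 13.49 in control eTregs and 12.80, 14.84 and 14.81 on the 3 KO eTreg arrays. Of these 18 markers, 1 was called higher in eTregs in controls and 6 in KO. In controls 17 of the 18 had a higher mean in eTregs (median 0.56), 9 of them at an unadjusted P below 0.05. In KO all 18 did (median 1.12), all at an unadjusted P below 0.05. Among all transcript clusters, 3.06% were called between control subsets, 2.35% between KO subsets and 0.117% between eTregs. An unadjusted P below 0.05 was met by 12.8%, 13.8% and 8.03%. All 18 had a higher mean in KO than in control eTregs (median 0.77), 10 of them at an unadjusted P below 0.05, and 0 were called. Dendritic cell markers ran from 12.09 to 12.23 in control eTregs and from 12.42 to 13.26 in KO eTregs. Of these 10 markers, 0 were called between control subsets, 3 were called higher in KO eTregs than in KO cTregs, and 1 higher in KO than in control eTregs (median 0.47, 7 at an unadjusted P below 0.05). CD8 T and NK cell markers ran from 11.88 to 12.08 in control cTregs, 11.80 to 12.25 in KO cTregs, 11.85 to 12.38 in control eTregs and 12.17 to 12.83 in KO eTregs. All 10 had a higher mean in KO than in control eTregs (median 0.40, 4 at an unadjusted P below 0.05, 0 called). Between subsets, 2 of them were called higher and 2 lower in controls, and 2 higher in KO. Over all 14 arrays the summed neutrophil markers ran from 11.09 to 11.47, B cell markers from 11.20 to 11.78 and erythroid markers from 11.67 to 13.88, and 0 genes of these 3 lists were called in any comparison. Their part in the values of the glycolytic genes was not tested, and in sorted populations fewer cells of a type and less RNA per cell cannot be told apart.

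Between cTregs and eTregs of control mice none of the 10 glycolytic genes passed the test, and the largest difference was that of Hk2. A transcript cluster was called when its log2 change was at least 0.5 either way with an adjusted P below 0.05 in limma, which 3.06% of all transcript clusters met. Of the 10, 0 were called and 1 had an unadjusted P below 0.05 (12.8% of all transcript clusters did), namely Hk2. Their changes ran from -0.19 to 0.56, with 6 higher and 4 lower in eTregs and a median of 0.053, against 0.0026 over all transcript clusters. In KO the same subset comparison also called 0 of 10 (2.35% of all), with an unadjusted P below 0.05 for Slc2a1 and Pfkp (13.8% of all), a median of 0.16 against -0.044 over all, and a range from -0.49 to 0.58. These are not bounds at 0. The 95% confidence interval of the change lay within 0.5 either way for 6 of 10 genes in controls and for 4 of 10 in KO.

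**Figure D1:**
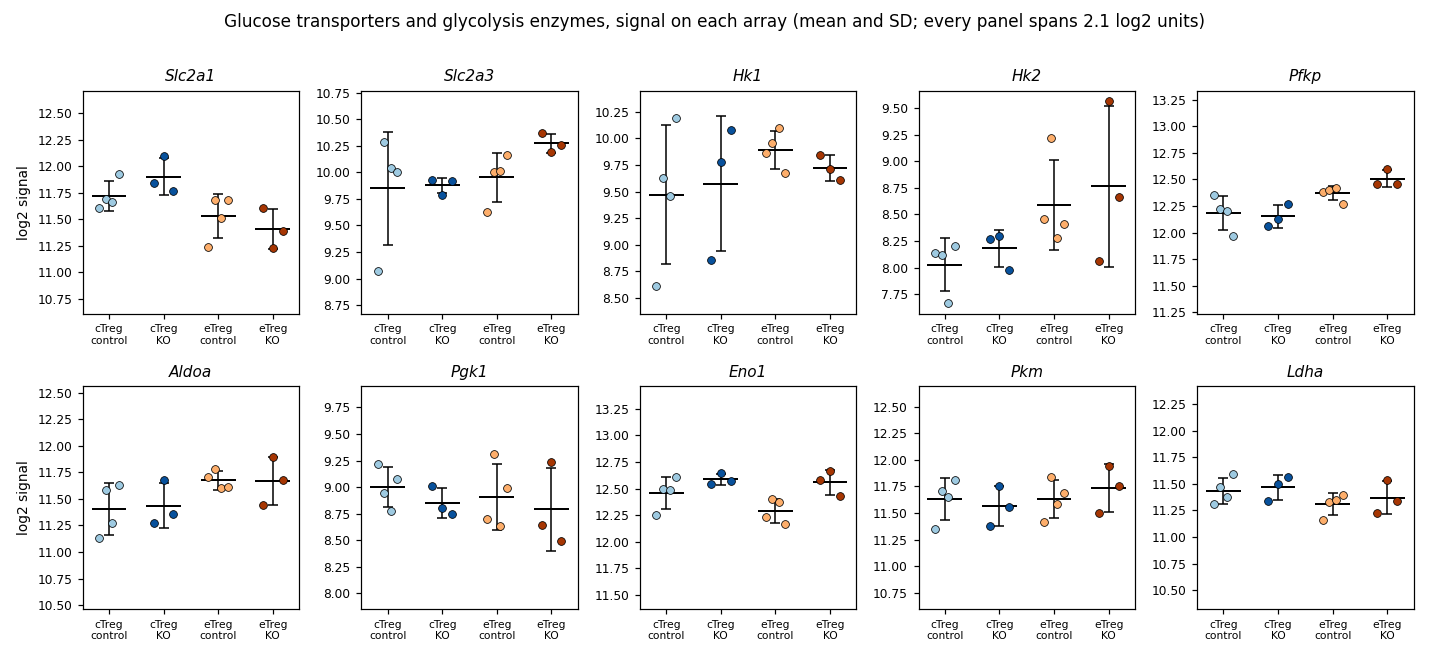
Log2 signal of each of the 10 genes on every array, by subset and genotype label; points are arrays, horizontal lines group means and bars SD (4 control and 3 KO arrays per subset). Every panel spans 2.1 log2 units around its own centre, and signal levels are not comparable between genes. Hk1 and Hk2 were the most scattered, and Pfkp, Eno1 and Ldha the tightest.

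Of the transporters, Slc2a1, which encodes the high-affinity basal carrier GLUT1, was the gene with the smallest P in any comparison. Its log2 signal was 11.61, 11.69, 11.66 and 11.93 in control cTregs and 11.24, 11.69, 11.51 and 11.68 in control eTregs. The groups overlapped, and the change of -0.19 (95% interval -0.46 to 0.077) was not called (adjusted P = 0.64, limma). In KO cTregs it was 11.84, 12.10 and 11.77, and in KO eTregs 11.60, 11.23 and 11.39. All 3 KO eTreg arrays lay below all 3 KO cTreg arrays, by 0.49 (95% interval -0.80 to -0.18, a 1.41-fold difference), with an unadjusted P of 0.00386 and an adjusted P of 0.0993, so that it was not called. Without the array KO eTreg 1 the change was -0.59 and passed (adjusted P = 0.0334), while 5.57% of all transcript clusters were called in that fit. The test of the difference between the subset changes in KO and control gave -0.30 (95% interval -0.71 to 0.11, adjusted P = 0.847), so the subset difference was not shown to depend on the genotype label.

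Slc2a3, which encodes the neuronal-type high-affinity carrier GLUT3, was not called in any comparison. It read 9.07, 10.28, 10.04 and 10.01 in control cTregs and 9.63, 10.004, 10.01 and 10.16 in control eTregs. Control cTreg 1 lay below the other 3 of its group, and the groups overlapped. It read 9.92, 9.79 and 9.91 in KO cTregs and 10.37, 10.19 and 10.25 in KO eTregs. The KO eTreg arrays were above all KO cTreg arrays and above all control eTreg arrays, by 0.40 (95% interval -0.087 to 0.88, adjusted P = 0.481, limma) and 0.32 (95% interval -0.13 to 0.77, adjusted P = 0.779). Both comparisons used the same 3 KO eTreg arrays. They were 0.35 (adjusted P = 0.483) and 0.27 (adjusted P = 0.653) without KO eTreg 1.

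The difference Slc2a1 minus Slc2a3 within an array asks whether the 2 carriers differed unequally between groups. It was 1.58 ± 0.083 in control eTregs (SD, 4 arrays) and 1.13 ± 0.099 in KO eTregs (SD, 3 arrays), and the arrays did not overlap. The gap was 0.45 lower in KO eTregs (exact two-sided permutation P = 0.0571, the smallest this design allows, and 0.343 after Benjamini-Hochberg adjustment over 12 such tests). Between KO eTregs and KO cTregs, at 2.03 ± 0.25, it was 0.89 lower (exact permutation P = 0.1, again the smallest possible, adjusted 0.4). In controls the subset difference was -0.30 and the arrays overlapped (exact permutation P = 0.314, adjusted 0.754). None passed the correction.

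The hexokinases, which phosphorylate glucose on entry, had the widest spread. Hk2, the inducible isoform, read 8.14, 8.11, 7.66 and 8.20 in control cTregs and 8.45, 9.22, 8.28 and 8.41 in control eTregs. All control eTreg arrays were above all control cTreg arrays, as 11.1% of all transcript clusters were apart in 1 direction or the other. The change was 0.56 (95% interval 0.0094 to 1.11, 1.48-fold), with an unadjusted P of 0.0467 and an adjusted P of 0.375 in limma. In KO it read 8.26, 8.30 and 7.98 in cTregs and 8.06, 9.57 and 8.66 in eTregs, where KO eTreg 1 fell among the cTregs and the change was 0.58 (95% interval -0.055 to 1.22, adjusted P = 0.419). Without that array it was 0.94 (adjusted P = 0.0567). Between KO and control eTregs Hk2 differed by 0.17 (adjusted P = 0.933) with KO eTreg 1 and by 0.53 (SE 0.26, unadjusted P = 0.0590, adjusted P = 0.397) without it. Hk1, the constitutive isoform that docks on mitochondria, ran from 8.61 to 10.19 in control cTregs and from 9.67 to 10.10 in control eTregs, with a change of 0.42 (95% interval -0.16 to 1.01, adjusted P = 0.631). Its lowest values were those of control cTreg 1 (8.61) and KO cTreg 1 (8.86). The difference Hk2 minus Hk1 was not shown to differ in any of 4 comparisons (exact permutation P from 0.514 to 1.0, adjusted 0.892 to 1.0).

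Pfkp, the platelet-type phosphofructokinase that commits sugar to glycolysis, was among the steadiest of the 10, with an SD within groups of 0.11 against a median of 0.18 over all transcript clusters. It read 12.36, 12.22, 12.20 and 11.97 in control cTregs and 12.38, 12.40, 12.42 and 12.27 in control eTregs, which overlapped. In KO cTregs it read 12.06, 12.13 and 12.27, and in KO eTregs 12.46, 12.60 and 12.46. The KO eTreg arrays were above every other array. The change between KO subsets was 0.35 (95% interval 0.11 to 0.59, 1.28-fold), with an unadjusted P of 0.00694 and an adjusted P of 0.136 in limma, and against control eTregs it was 0.14 (adjusted P = 0.82). Without KO eTreg 1 these were 0.38 (adjusted P = 0.119) and 0.16 (adjusted P = 0.601).

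Aldoa, the muscle-type aldolase that splits fructose bisphosphate, ran from 11.14 to 11.63 in control cTregs and from 11.60 to 11.78 in control eTregs, a change of 0.27 (95% interval -0.020 to 0.55, adjusted P = 0.446, limma). In KO it ran from 11.28 to 11.68 and from 11.44 to 11.89, a change of 0.23 (adjusted P = 0.561), or 0.35 without KO eTreg 1 (adjusted P = 0.274). In both genotypes the subsets overlapped.

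Pgk1 and Eno1 act in the lower part of the pathway, and neither was called. Pgk1, which makes the first ATP of glycolysis, was near the middle of all transcript clusters in mean signal (51.4% were lower) and its subset difference was -0.093 in controls (adjusted P = 0.931) and -0.060 in KO (adjusted P = 0.936). Eno1 encodes alpha-enolase, and 97.7% of transcript clusters had a lower mean. It read 12.23, 12.40, 12.37 and 12.17 in control eTregs and 12.58, 12.66 and 12.43 in KO eTregs. All KO eTreg arrays were above all control eTreg arrays, by 0.27 (95% interval 0.035 to 0.50, 1.20-fold), with an unadjusted P of 0.0266 and an adjusted P of 0.5256. Without KO eTreg 1 it was 0.25 with an unadjusted P of 0.0632. The near-identical copy Eno1b, which was looked at after the values were seen, differed by 0.15 in the same comparison (adjusted P = 0.771), and how far the probes of the 2 copies share signal is not known.

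Pkm, which encodes the muscle pyruvate kinases and makes the last ATP, did not separate the groups: it ran from 11.35 to 11.81 in control cTregs, 11.42 to 11.84 in control eTregs, 11.38 to 11.76 in KO cTregs and 11.50 to 11.95 in KO eTregs. Its subset change in controls was 0.0028 (95% interval -0.28 to 0.29, adjusted P = 0.998, limma). Ldha, whose subunit favours the making of lactate, lay between 11.16 and 11.59 on all 14 arrays. Its difference was -0.13 between control subsets (95% interval -0.35 to 0.088, adjusted P = 0.743) and -0.098 between KO subsets (95% interval -0.35 to 0.15, adjusted P = 0.78). The within-array difference of Ldha and Ldhb, the subunit that favours the use of lactate, was 2.96 ± 0.26 in control cTregs (SD, 4 arrays) and 2.55 ± 0.15 in KO cTregs (SD, 3 arrays), without overlap. That difference of -0.42 had an exact permutation P of 0.0571, the smallest possible, and 0.343 after adjustment over 12 tests.

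Between genotypes none of the glycolytic genes passed the test. In eTregs 0 of 10 were called (0.117% of all transcript clusters), 1 had an unadjusted P below 0.05 (8.03% of all), and 0 of 10 met the study's looser threshold of 0.5 with an unadjusted P below 0.05 (2.72% of all). The changes ran from -0.17 for Hk1 to 0.32 for Slc2a3, with a median of 0.083 against -0.022 over all. Of all transcript clusters, 2.04% were called without KO eTreg 1 (452, against 26 with it) and 1.96% with array weights (435), but still 0 of 10. Without that array the changes ran from -0.24 for Hk1 to 0.53 for Hk2, with a median of 0.15. Slc2a3, Pfkp and Eno1, 3 of 10, had KO eTreg arrays above all control eTreg arrays, while 6.85% of all transcript clusters did not overlap in either direction. Without KO eTreg 1 the same 3 did not overlap, but so did 25.4% of all. In cTregs 0 of 10 were called (0.045% of all), 0 of 10 had an unadjusted P below 0.05 (4.01% of all), 0 of 10 met the looser threshold (0.576% of all), and 0 of 10 did not overlap (5.05% of all). There the changes ran from -0.15 for Pgk1 to 0.18 for Slc2a1, each with an adjusted P of 0.9999 in limma. The 95% interval lay within 0.5 either way for 6 of 10 genes in eTregs and 7 of 10 in cTregs, and Hk1, Hk2 and Pgk1 reached beyond it in both. The interaction, the genotype change in eTregs minus that in cTregs, called 0 of 10 (0.0% of all), with 0 at an unadjusted P below 0.05 (6.12% of all transcript clusters) or at the looser threshold (3.05%), and values from -0.30 for Slc2a1 to 0.29 for Slc2a3. The interaction called 0.932% of all transcript clusters without KO eTreg 1 (207, against 0 with it) and still 0 of 10, with values from -0.40 for Slc2a1 (adjusted P = 0.494) to 0.37 for Hk2 (adjusted P = 0.707).

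**Figure D2:**
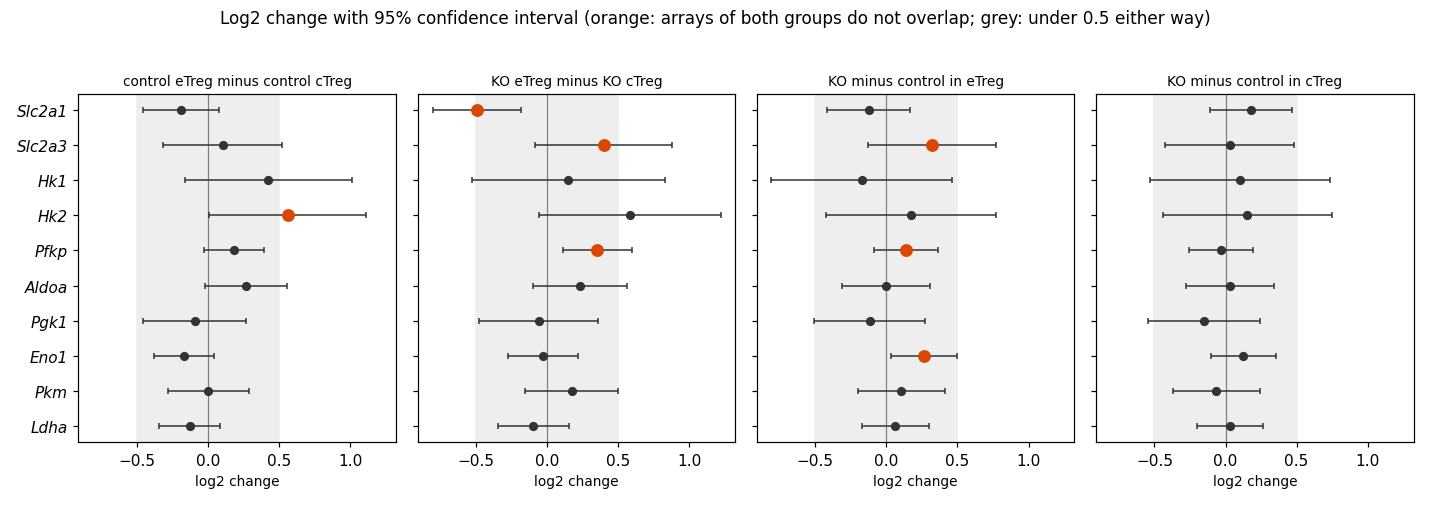
Log2 change (x axis) with its 95% confidence interval for each of the 10 genes in the 2 subset and 2 genotype comparisons. Orange points mark genes whose arrays did not overlap between the groups (1 in control subsets, 3 in KO subsets, 3 between eTregs, 0 between cTregs) and the grey band spans 0.5 either way. No gene was called, and the intervals of Hk1 and Hk2 were the widest.

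In KO subsets 3 of 10 genes did not overlap (Slc2a1 lower, Slc2a3 and Pfkp higher in eTregs), against 14% of all transcript clusters. Without KO eTreg 1 it was 5 of 10 (Slc2a1, Slc2a3, Hk2, Pfkp and Pkm), against 33.1% of all. The changes of the genes not yet given without that array were then 0.29 for Pkm (adjusted P = 0.358), 0.084 for Hk1, 0.014 for Pgk1, -0.041 for Eno1 and -0.028 for Ldha, none of them called, and the median over the 10 was 0.19.

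Across arrays the 10 genes were loosely related to each other. After group means were removed, the 45 pairs had correlations from -0.59 to 0.84 with a median of 0.32, and 33 were above 0. This is a description over 14 arrays that share a normalization. The closest pairs were Pkm with Ldha (0.84), Aldoa with Pkm (0.83) and Hk2 with Pgk1 (0.82). The mean of the 10 genes, each centred on its own mean, was lowest on control cTreg 1 (-0.29) and highest on KO eTreg 2 (0.27) and control eTreg 2 (0.20). Among all other transcript clusters, those that followed this mean most closely over the 14 arrays were Wdr41 (Pearson r = 0.90), Capzb (0.89), 1700021F05Rik (0.89), Lbhd1 (0.89) and Rbbp7 (0.89). They are the highest of very many correlations, and no test was made. The genes were not scaled, so the most scattered weigh most in the mean. The 10 genes themselves followed it unequally, from r = -0.049 for Slc2a1 to 0.89 for Pkm. Within-group SD was 0.47 for Hk1, 0.44 for Hk2 and 0.32 for Slc2a3, larger than in 98.1%, 97.6% and 92.3% of transcript clusters, while Pfkp (0.11), Eno1 (0.12) and Ldha (0.12) stood among the lowest.

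Among the other enzymes of glycolysis, 1 gene passed the test. Of 20 further enzymes and isoforms, 1 was called higher and 0 lower in eTregs in each genotype (3.06% of all transcript clusters in controls and 2.35% in KO), with list medians of 0.0065 in controls and -0.028 in KO. The gene was Tpi1, the triose phosphate isomerase that lets both products of the split sugar go on. It read 10.17, 10.56, 10.64 and 10.80 in control cTregs and 11.07, 11.30, 11.25 and 11.21 in control eTregs. All eTregs were above all cTregs, and the change was 0.66 (95% interval 0.35 to 0.97, 1.58-fold, adjusted P = 0.0151, limma). In KO it read 10.31, 10.53 and 10.47 in cTregs and 11.08, 11.76 and 11.48 in eTregs, a change of 1.00 (95% interval 0.64 to 1.36, 2.00-fold, adjusted P = 0.0039). The call in controls was lost without control cTreg 1 (adjusted P = 0.0535) or control eTreg 2 (0.0529), and in KO in a fit of those 2 groups alone (0.0506). Tpi1 was not called between genotypes (0.24 in eTregs, adjusted P = 0.785) or in the interaction (0.34, adjusted P = 0.854). Leaving out KO eTreg 1, the KO subset change was 1.18 (adjusted P = 0.000169), the genotype difference in eTregs 0.41 (adjusted P = 0.255) and the interaction 0.52 (adjusted P = 0.383). Pgam2, the muscle-type phosphoglycerate mutase, had a difference of -0.55 in controls (adjusted P = 0.0551) and of -0.049 in KO (adjusted P = 0.94). The control difference was on the other side of the threshold in 8 of 22 alternatives (adjusted P down to 0.0123). Pgam1, which fills the step between Pgk1 and Eno1 in most tissues and was picked after its values were seen, was 0.33 higher in control eTregs (adjusted P = 0.385) and 0.50 higher in KO eTregs (adjusted P = 0.191). In KO subsets it was called higher with array weights (4.33% of all transcript clusters called) and without KO eTreg 1 (5.57%). Ldhc was called lower without KO eTreg 1, and Aldoc higher without KO cTreg 1 (1.39% of all). Ldhc read 6.21 to 7.03 on the KO arrays, close to the background probes at 6.00 to 6.30.

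Of 9 other hexose transporters, 7 pentose phosphate genes, 7 gluconeogenesis genes and 6 genes of lactate and pyruvate transport, 0 were called in any of the 5 comparisons, where 3.06% of all transcript clusters were called in control subsets, 2.35% in KO subsets, 0.117% between eTregs, 0.045% between cTregs and 0.0% in the interaction. Without KO eTreg 1, Mpc1, a subunit of the mitochondrial pyruvate carrier, was called higher in KO eTregs than in KO cTregs. Slc16a1, the lactate carrier MCT1, was called lower there. In that fit, which keeps 2 KO eTreg arrays, 5.57% of all transcript clusters were called between KO subsets. Mpc1 was also called higher in KO than in control eTregs, where 2.04% of all were called. In these lists Slc2a5, a fructose carrier, had a difference of -0.25 (adjusted P = 0.372), Slc2a6 of 0.18 (adjusted P = 0.388) and Slc16a3, the lactate exporter MCT4, of 0.32 (adjusted P = 0.3) between control subsets. Slc16a7, another lactate carrier, had a difference of 0.52 (adjusted P = 0.125), but its signal of 4.54 to 5.91 was below the medians of the background probes. It was called with array weights and with the random or fixed replicate block (adjusted P down to 0.0167). The median changes of the 4 lists between control subsets ran from -0.031 to 0.076.

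Where pyruvate passes to the mitochondrion, 1 kinase gene passed the test. Among 11 genes of pyruvate dehydrogenase, its kinases and its phosphatases, 0 were called higher and 1 lower in control eTregs (3.06% of all transcript clusters), and 0 in KO (2.35%). In controls 8 were lower and 3 higher in eTregs, with a list median of -0.14 against 0.0026 over all transcript clusters. In KO 4 were lower and 7 higher, with a median of 0.0084 against -0.044. Pdk1, a HIF-1 target whose kinase shuts pyruvate dehydrogenase, read 10.83, 10.87, 10.51 and 10.38 in control cTregs and 9.56, 9.96, 9.83 and 9.98 in control eTregs. The eTregs were all lower, by 0.81 (95% interval -1.13 to -0.50, a 1.76-fold difference, adjusted P = 0.00403, limma). In KO the difference was -0.49 (adjusted P = 0.179), or -0.51 without KO eTreg 1 (adjusted P = 0.160), and the interaction was 0.32 (adjusted P = 0.866). Pdk3, another such kinase that was picked after its values were seen, had a subset difference of 0.051 in controls (adjusted P = 0.973) and of 0.95 in KO (adjusted P = 0.0508), with an interaction of 0.90 (adjusted P = 0.788). It was called in KO in 9 of the alternatives, among them without KO eTreg 1. Pdp1, the phosphatase that reverses them, had a difference of -0.57 in controls (adjusted P = 0.108), and was called in 3 alternatives (adjusted P down to 0.0276).

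Regulators passed the test in both directions. Of 18 regulators of glycolysis, 2 were called higher (Hif1a and Egln3) and 1 lower (Myc) in control eTregs, and 1 higher (Egln3) in KO eTregs, against 3.06% and 2.35% of all transcript clusters, with list medians of 0.029 and -0.0090. Hif1a, the oxygen-regulated subunit of HIF-1, read 11.17, 11.03, 10.83 and 10.66 in control cTregs and 11.76, 11.75, 11.94 and 11.79 in control eTregs. The groups were well apart, by 0.88 (95% interval 0.61 to 1.16, 1.85-fold, adjusted P = 0.00066, limma). In KO the change was 0.50 (adjusted P = 0.106), and 0.64 without KO eTreg 1 (adjusted P = 0.016), with an interaction of -0.39 (adjusted P = 0.822). Egln3, an oxygen sensor that marks HIF-1 for destruction and is itself a HIF-1 target, was higher in eTregs by 0.89 in controls (adjusted P = 0.0159) and by 1.26 in KO (adjusted P = 0.00641), or 1.48 without KO eTreg 1 (adjusted P = 0.000487). Its call in controls was lost without any 1 of 4 control arrays, at an adjusted P of 0.0503 to 0.0605. Myc, which drives glycolytic genes during T cell activation, read 12.17, 12.32, 12.23 and 12.17 in control cTregs and 11.46, 11.79, 11.63 and 11.66 in control eTregs, and was lower by 0.58 (95% interval -0.84 to -0.33, adjusted P = 0.00934). In KO the difference was -0.41 (adjusted P = 0.153), and -0.54 without KO eTreg 1 (adjusted P = 0.0321). Arrdc4, another of the 18 that was picked after its values were seen, was not called in the main fit. It was called higher in control eTregs with array weights (4.34% of all transcript clusters called) and without KO eTreg 1 (3.86%). Its means were 8.97 in control cTregs, 9.73 in control eTregs, 9.72 in KO cTregs and 10.29 in KO eTregs.

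**Figure D3:**
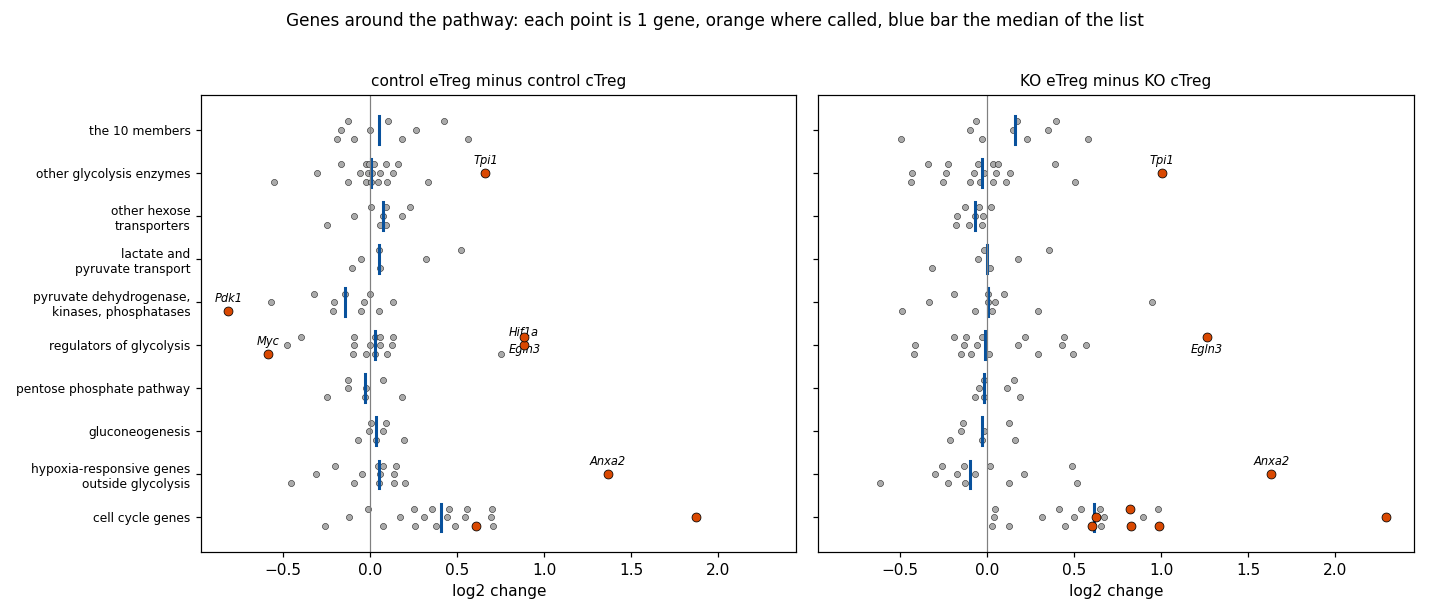
Log2 change between eTregs and cTregs in controls (left) and KO (right) for every gene of the lists around the pathway; each point is 1 gene, orange where called, blue bars list medians. Tpi1, Egln3 and Anxa2 were called in both panels, and Hif1a, Myc and Pdk1 in the left panel. The medians of all lists but the cell cycle ran from -0.14 (pyruvate dehydrogenase, controls) to 0.16 (the 10 genes, KO).

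Among 14 genes known to respond to hypoxia outside glycolysis, 1 was called higher and 0 lower in each genotype (3.06% and 2.35% of all transcript clusters), with medians of 0.054 in controls and -0.099 in KO. It was Anxa2, a membrane-binding annexin also known as a marker of activated and effector T cells and of myeloid cells, higher by 1.37 in controls (adjusted P = 0.0108) and by 1.63 in KO (adjusted P = 0.014). The KO call was lost in a fit of those 2 groups alone (adjusted P = 0.0566) and without any 1 of 4 KO arrays (0.0574 to 0.0856), while without KO eTreg 1 the change was 2.06 (adjusted P = 0.000183). Ndrg1, a stress-responsive gene, had a difference of -0.46 in controls (adjusted P = 0.3) and of -0.61 in KO (adjusted P = 0.195).

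Cell division genes passed the test in both genotypes. Of 20 cell cycle genes, 2 were called higher in control eTregs (Mki67 and Birc5) and 6 in KO eTregs (Mki67, Top2a, Plk1, Mcm3, Tyms and Kif11), 0 were called lower (3.06% and 2.35% of all transcript clusters were called), and the medians were 0.41 and 0.62 against 0.0026 and -0.044 over all transcript clusters. Mki67, the proliferation antigen Ki-67, was higher by 1.87 in controls (adjusted P = 0.00028, limma) and by 2.30 in KO (adjusted P = 0.000387), and it kept both calls in every alternative run. Each other call was lost on leaving out some single array. Birc5, an inhibitor of apoptosis needed in mitosis, lost its control call in 7 of 22 alternatives (adjusted P up to 0.103), 6 of them the omission of 1 control array (cTreg 1, 2 or 3, or eTreg 1, 2 or 4). In KO subsets the 6 calls fell to 1 without KO eTreg 3 or KO cTreg 1, to 2 without KO eTreg 2 or in a fit of those 2 groups alone, and to 3 without KO cTreg 3. They came to 12 without KO eTreg 1, all higher, against 5.57% of all transcript clusters. Bub1, a spindle checkpoint kinase, had a difference of 0.71 in controls (adjusted P = 0.291) and of 0.90 in KO (adjusted P = 0.223). Without KO eTreg 1 its KO difference was 1.38 and was called (adjusted P = 0.00388, limma). Bub1 read 5.63 to 6.02 in KO cTregs, about the level of the background probes at 6.00 to 6.30. No gene of the pathway or cell cycle lists was called between genotypes in either subset or in the interaction. Without KO eTreg 1, Top2a, a topoisomerase of dividing cells, passed between KO and control eTregs (0.82, adjusted P = 0.0199), and with array weights Mcm3 (adjusted P = 0.0356) and Kif11 (adjusted P = 0.0264) did.

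**Figure D4:**
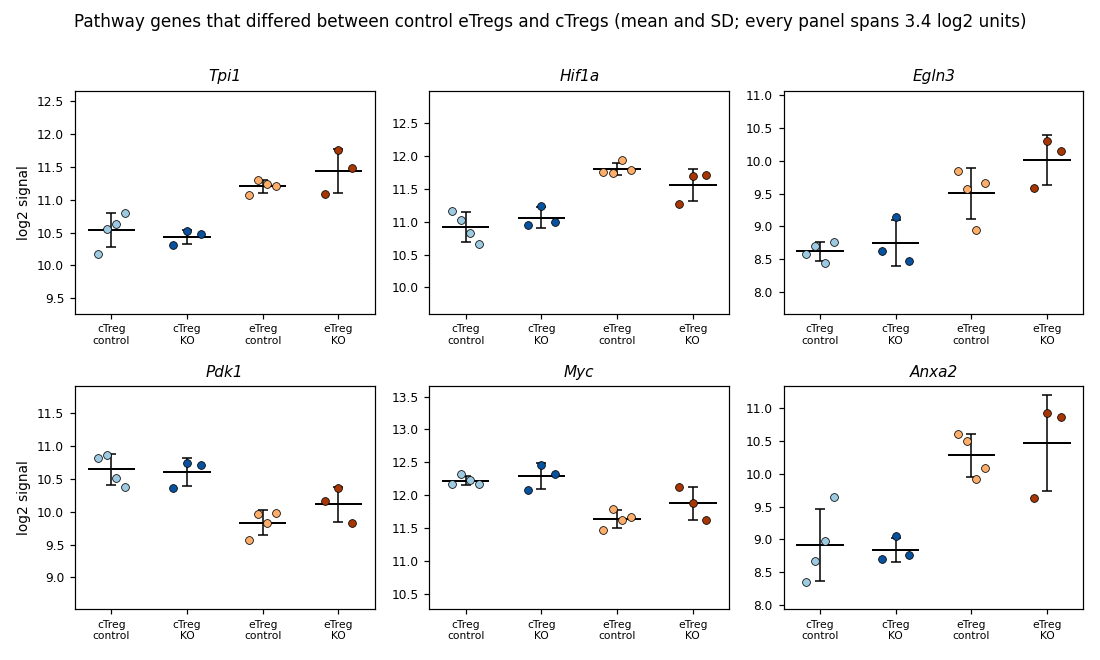
Log2 signal on every array of 6 genes around the pathway that were called between control eTregs and control cTregs; points are arrays, lines group means and bars SD, and every panel spans 3.4 log2 units. Tpi1, Hif1a, Egln3 and Anxa2 lie higher and Pdk1 and Myc lower in control eTregs than in control cTregs, and KO eTreg 1, the leftmost point of its group, lies nearest to the KO cTregs in Tpi1, Hif1a, Egln3, Myc and Anxa2.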

How the data were processed

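Total RNA of sorted Tregs was labelled with biotin and hybridised to Clariom S mouse arrays, 1 per sample. The authors normalized the arrays with RMA in Affymetrix Expression Console 1.1 per the labels, and the deposited matrix holds log2 signal for 28846 entries. The genome build of the array annotation is not given in the sources used here. After 6640 control probe sets and 3 entries with a blank symbol were left out, 22203 transcript clusters were tested. With limma 3.58.1 in R 4.3.3, a linear model with 4 group means was fitted over all 14 arrays, with eBayes and Benjamini-Hochberg adjustment over all transcript clusters. The study's methods use limma with the same 0.5 threshold. The test was first tried on simulated data. Isoform pairs were tested by exact permutation over arrays. Arrays give no counts, so that their number limits the precision. Members and lists were chosen with earlier results of these data known. From the lists, genes called in any comparison were named, with up to 2 per list with the largest change between control subsets at an unadjusted P below 0.05. A second sort marker is not reported here. Marker lists for neutrophils, B cells, erythroid cells and CD8 T and NK cells were summed as well. Other scalings, a filter, array weights, a trended variance, 2-group fits, replicate blocks and leaving out each array were tried.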

Additional observations from a re-analysis of the deposited data

Results flagged for a closer look

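Hk2 on the array control cTreg 3 was far from the other arrays of its group, at 7.663 on the log2 scale against 8.11 to 8.20. The gap took 0.842 of the range of the group, where the 95% critical value of Dixon's test for 4 arrays is 0.829. It was 1 of 20 groups of control arrays examined over the 10 genes, and chance alone flags about 1 in 20.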

How the results depend on the processing

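The counts of called genes among the 10 stayed at 0 in the control subset, both genotype and the interaction comparisons under every alternative run. In KO subsets 1 gene was called with array weights (Slc2a1, -0.52, adjusted P = 0.0464, with 4.33% of all transcript clusters called), and leaving out 1 array at a time gave 0 to 1, again Slc2a1, without KO eTreg 1. Its adjusted P over all alternatives ran from 0.0334 to 0.326. At the looser threshold the interaction count ran from 0 to 1 on leaving out 1 array (Slc2a3, without control cTreg 1). Medians over the 10 genes ran on leaving out 1 array from -0.056 to 0.13 in control subsets, 0.048 to 0.26 in KO subsets, -0.028 to 0.15 between eTregs, -0.035 to 0.11 between cTregs and -0.099 to 0.17 for the interaction. The sign of the median turned without control cTreg 1 in control subsets (-0.056), without KO eTreg 2 between eTregs (-0.028), without control cTreg 1 (-0.035) or KO cTreg 3 (-0.0038) between cTregs, and for the interaction under 75th percentile scaling (-0.0068) and without several single arrays, so these medians have no settled direction outside KO subsets. Of 1070 gene values under alternatives, 65 turned sign, each of them uncalled and with a main unadjusted P above 0.05.

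Same-numbered cTreg and eTreg arrays deviated together by correlations of 0.22, 0.15, 0.10 and 0.07 in controls and 0.30, 0.29 and 0.04 in KO. Each of these values was above 0, while different numbers gave -0.31 to 0.12. As not every value was above 0.1, a threshold set here, the main fit did not take the numbers as pairs. That does not exclude a shared mouse, so subset P values of the main fit leave out a possible pairing. With the replicate number as a random block (correlation 0.24), 0 of 10 genes were called in the 5 comparisons, and with a fixed block 0 of 10 in the comparisons it was run on. The random block called 3.75% of all transcript clusters between control subsets (3.06% in the main fit) and 3.87% between KO subsets (2.35%). The fixed block called 3.33% and 2.91%. Slc16a7 in controls and Pdk3 in KO were called with either block, and Birc5 lost its control call with the fixed block. Control cTreg 4 and KO eTreg 3 correlated better with another number than with their own. The alternative of a second row per gene was not run, since each gene had 1 row. With 3 or 4 arrays per group, Hk2 changes of 0.56 between control subsets and 0.58 between KO subsets did not pass. Changes of Hk1 and Hk2 above 0.5 could thus be missed. A change under 0.5 could not be called for any gene.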
